A study of Mus musculus with 36 samples.

Results

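Pancreatic fibroblasts from co-culture with the tumour sub-clone named clone E were compared with the same kind of fibroblasts cultured alone, in 8 of the 36 RNA-seq libraries of the series. The libraries were chosen by their labels: 4 carry the name of clone E and 4 carry the name of the mono-culture. All were murine pancreatic fibroblasts of the C57BL/6 strain, and no treatment, allele or age is given for either group. In co-culture, fibroblasts and tumour cells shared a dish for 48 h, and flow sorting then split them by the GFP that only the tumour cells carried. Polyadenylated RNA was converted, from 200 ng of total RNA and with 14 amplification cycles, into strand-specific libraries read as pairs of 76 bases. The labels do not say whether the mono-culture cells also passed through the sorter, and they number the mono-culture libraries after all the co-culture libraries, so sorting, order of handling and co-culture cannot be told apart. The labels also do not say whether replicates were separate cultures. The p-values thus rest on a spread between libraries of a group that may be technical, estimated over all 36 libraries. The other co-cultures of the series, with clones H, K, M, N, T and V and with a line called KPC1 (4 libraries each), entered the same statistical fit and served as the comparison at the end.

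Fibroblasts are the main matrix-producing cells of the pancreas and change state when tumour cells touch them or secrete factors onto them. Myofibroblastic states are known for contractile and matrix genes driven by TGF-beta, and inflammatory states for cytokines and chemokines. Notch signals pass between touching cells, from a ligand on one membrane to a receptor on the next, and switch on genes of the Hes and Hey families. Wnt, EGF-receptor and interferon signals are read out in a similar way by small sets of target and feedback genes, so the level of these genes is commonly used as a readout of each pathway.

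Library totals ran from 14772803 to 21621983 counts with clone E and from 12577931 to 20727926 in mono-culture. No 2 libraries of a group agreed within sampling noise (chi-square per degree of freedom 5.84 to 31.6). Mono-culture replicate 4 stood apart from the other mono-culture libraries, with 2.16% of its counts from mitochondrial genes against 3.87% to 4.31%, and results that rest on it are given with and without it. Values below are CPM, counts scaled to a common library size by the trimmed mean of M-values (TMM), in the order of replicates 1 to 4. In bulk RNA of this kind, fewer cells that express a gene and less RNA of that gene per cell cannot be told apart.

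Of the 14439 genes tested, 4622 (32%) differed between clone E co-culture and mono-culture in edgeR's quasi-likelihood test at a Benjamini-Hochberg adjusted p under 0.05. Higher with clone E were 2377 genes (16.5%) and lower were 2245 (15.5%), and the median log2 fold change over all genes tested was 0.00. A change of at least 2-fold was met by 797 of the higher and 593 of the lower genes. Without clone E replicate 3 the count of calls was 3664, the lowest with any one library left out. The shares 16.5% and 15.5% are the background against which the counts of each gene list below are read. The lists were chosen with earlier results of these data known, so a share above this background describes a list and is no independent support. List counts of 1 or 2 members often changed by 1 or 2 when a library was left out, and larger counts that changed by over 1.5 times are given with that library.

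Several epithelial genes were among those with the highest fold changes. Of the 14 genes with the highest fold changes, among those with a mean of at least 2 CPM and no overlap between groups, 13 were Krt8, Cldn6, Palmd, Krt18, Nkx6-3, Cdx2, Pdx1, Wfdc2, Cadm1, Ifi202b, Foxa2, Cdh13 and Fam83g. Krt8 and Krt18 encode the paired keratins of simple epithelia, Cldn6 a tight-junction claudin, and Nkx6-3, Cdx2, Pdx1 and Foxa2 transcription factors of gut and pancreatic endoderm. Krt8 (ENSMUSG00000049382, chr15:101996698-102004482 (− strand) of GRCm38) was at 110.2, 82.1, 152 and 100 CPM with clone E and at 0, 0, 0 and 0.0914 CPM in mono-culture. Over the 4 libraries of each group these were 8062 against 2 counts, a scaled ratio of 3903 with an exact 95% counting interval of 1080 to 32231 (log2 fold change 11.64, SE 1.43, adjusted p = 4.9e-07, a fitted fold that depends on the prior count of the fit). Cldn6 had 947 counts with clone E and 0 in mono-culture and was at least 306-fold higher against a floor of 3 counts over the group. Nkx6-3, Cdx2, Pdx1 and Palmd were also at 0 in each mono-culture library, and their folds were at least 148, 138, 118 and 203. Krt8, Cldn6, Nkx6-3, Cdx2, Pdx1 and Palmd thus each had at least 365 counts with clone E and at most 2 in mono-culture.

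Of the 42 epithelial and tumour cell markers on the list, 22 had enough counts to be tested, 15 rose and 1 fell (median log2 fold change 2.96). A filter of at least 10 counts in every library drops genes absent from mono-culture, and under it 2 members rose and the median was 0.71. On the log2(RPKM + 1) scale, which shrinks the change of low genes, the median was 0.37. Cdh1, the adhesion protein E-cadherin, was at 19.6, 15.6, 34.4 and 19.3 CPM with clone E and at 0.440, 0.440, 0.152 and 0 CPM in mono-culture (log2 fold change 6.41, SE 0.71, adjusted p = 8.2e-08). The member that fell was Cdh3, the related P-cadherin, from 4.40 ± 0.783 to 1.88 ± 0.877 CPM (SD, n = 4 each, adjusted p = 0.014), and it did not pass without clone E replicate 3. Sox9, a transcription factor of pancreatic ducts, stood at 44.7 CPM in mono-culture against 41.7 CPM with clone E (adjusted p = 0.84), and it made up most of the list's level in mono-culture. Epcam, a surface protein that defines most epithelia, was at 0 in each clone E library and at 0.495, 0.165, 0 and 0.0457 CPM in mono-culture. Summed over the list, the level was 408, 322, 609.8 and 417 CPM with clone E and 61.1, 59.3, 54.9 and 62.2 CPM in mono-culture, without overlap. Members at 0 in all libraries of a group numbered 9 with clone E and 12 in mono-culture.

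Within clone E, replicate 3 had the highest and replicate 2 the lowest summed epithelial level. The same order of the highest and lowest library was seen for Cldn6 (10.1, 7.58, 24.97 and 10.98 CPM), Palmd (6.51, 5.13, 16.8 and 7.21 CPM), the Wnt ligand gene Wnt7b (7.996, 4.32, 17.6 and 8.23 CPM) and the EGF-receptor ligand gene Areg (2.78, 0.671, 6.69 and 3.38 CPM). Of the 115 genes described here against mono-culture that rose, 27 (23.5%) had replicate 3 highest and replicate 2 lowest, against 17.5% of the 2377 genes called higher. Beside these 4 genes they were Cdh1, Krt8, Krt18, Wfdc2, Foxa2, Nkx6-3, Cbfa2t3, Fam83g, Rps3a3, Ifi202b, Cxcl5, Dll1, Nrarp, Btc, Tgfa, Etv4, Gli1, Lif, Ptgs2, Igfbp3, Spp1, Vegfa and Wisp2. Among the 27, Cldn6, Cdh1, Krt8 and Krt18 are themselves added into the summed epithelial level. The order of these markers helps to set that of the sum and is no separate agreement with it. The share of 23.5% includes them. The rest of the 115 genes, Fap, Heyl and Axin2 among them, did not have this order. An order over 4 libraries does not give the source of the RNA. What share of any result came from tumour cell RNA was not tested. The listed markers of other cell types were low in both groups. The summed leukocyte list lay between 17.9 and 23.4 CPM with clone E and between 13.8 and 16.6 CPM in mono-culture, without overlap. Only 4 of its 13 genes had enough counts to be tested. Off the list, the leukocyte genes Mrc1 and Mcpt8 had 545 and 379 counts with clone E and 2 and 1 in mono-culture. Other leukocyte genes off the list were not surveyed. The endothelial list lay between 8.28 and 10.1 and between 9.28 and 10.2 CPM, and the acinar list between 6.07 and 7.67 and between 6.45 and 9.52 CPM. Of these lists, the macrophage gene Lyz2 fell (log2 fold change -2.25, adjusted p = 0.0027) and the endothelial gene Vwf rose by 1.31 on the log2 scale (adjusted p = 0.014). The acinar trypsinogen gene Prss2 was called higher, from 0 in mono-culture to a mean of 0.278 CPM, and no other member passed the test. Only 2 of the 11 acinar and 5 of the 9 endothelial genes had enough counts to be tested. The untested acinar gene Cpb1 had 20 counts with clone E and 2 in mono-culture, and Try5, a trypsinogen gene off the list, had 88 and 2. Other acinar genes off the list were not surveyed.

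**Figure D1:**
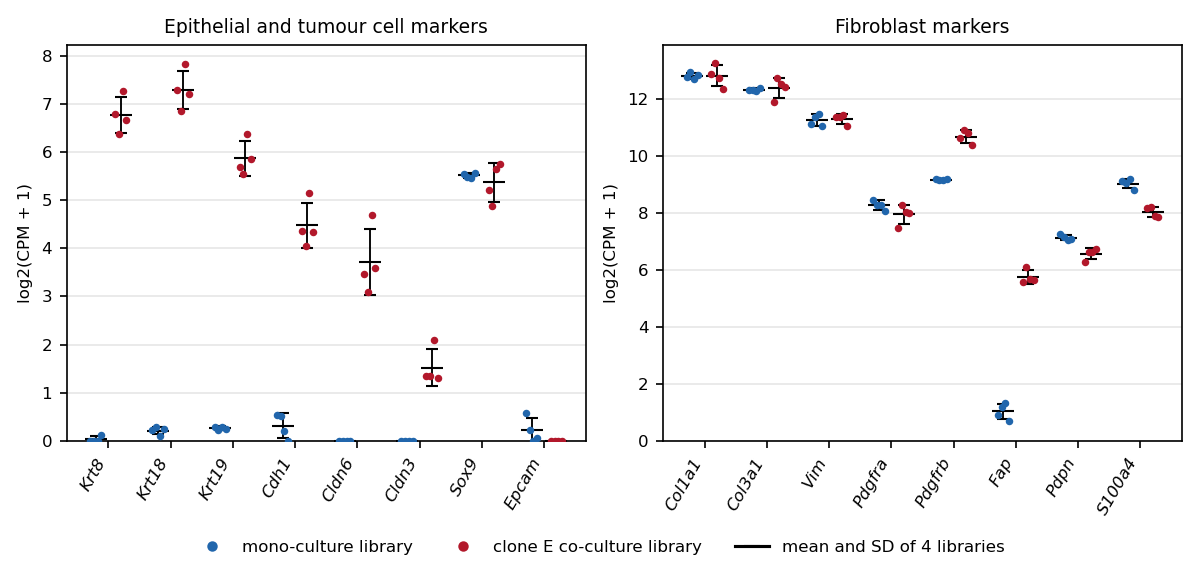
Levels of 8 epithelial and 8 fibroblast marker genes in each library, as log2(CPM + 1), with mono-culture libraries in blue and clone E libraries in red, and bars for the mean and SD of 4 libraries. The keratins, Cdh1, Cldn6 and Cldn3 are near 0 in mono-culture and separate from it with clone E, Epcam is at 0 in the clone E libraries, and the abundant fibroblast genes Col1a1, Col3a1 and Vim overlap between groups.

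Fibroblast genes were abundant in both groups, as the label says. Col1a1, a chain of collagen I, was at 7655, 9803, 6814 and 5313 CPM with clone E and at 7018, 7935, 6670 and 7449 CPM in mono-culture (adjusted p = 0.95). Per length of transcript, in RPKM, Col1a1 stood at 1247 ± 270.5 and Krt8 at 62.1 ± 16.9 in the clone E libraries (SD, n = 4). Of 18 tested fibroblast identity genes, 7 rose and 2 fell, with a median log2 fold change of 0.07. The gene with the highest fold change among them was Fap (ENSMUSG00000000392, chr2:62500943-62574075 (− strand)), which encodes fibroblast activation protein, a surface protease of tumour-associated fibroblasts. Fap was at 0.881, 1.26, 1.52 and 0.640 CPM in mono-culture and at 46.2, 67.3, 50.9 and 49.2 CPM with clone E (log2 fold change 5.68, SE 0.29, adjusted p = 3.8e-15). Each clone E library was far above each mono-culture library.

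The PDGF receptor genes differed from each other. Pdgfrb rose from 576 ± 7.69 to 1664 ± 269.5 CPM (SD, n = 4 each, log2 fold change 1.53, SE 0.21, adjusted p = 2.3e-06), while Pdgfra was at 353, 314, 312 and 269.5 CPM in mono-culture against 176, 314, 259 and 258 CPM with clone E, with overlap (adjusted p = 0.29). The collagen VI chain genes Col6a1 and Col6a2 rose by 1.05 and 1.26 on the log2 scale. The mesenchymal transcription factor genes Twist1 and Prrx1 rose by 0.86 and 0.76. The members that fell were S100a4, a calcium-binding protein gene (at 557, 525, 584 and 444 CPM in mono-culture against 289, 294, 240.2 and 231 CPM with clone E, adjusted p = 0.028), and Pdpn, which encodes podoplanin (log2 fold change -0.57, adjusted p = 0.0048).

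Of 11 tested markers of the quiescent, vitamin A-storing stellate state, 5 rose and 1 fell. Without mono-culture replicate 1 the number that rose was 3. The retinol carrier gene Rbp4 was at 16.9, 16.4, 30.7 and 15.6 CPM with clone E and at 0.0551, 0, 0 and 0.229 CPM in mono-culture (adjusted p = 1.6e-06). Plin4, a lipid-droplet coat gene, fell from 47.9 ± 9.51 to 12.2 ± 3.95 CPM (SD, n = 4 each, adjusted p = 1.9e-05).

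**Figure D2:**
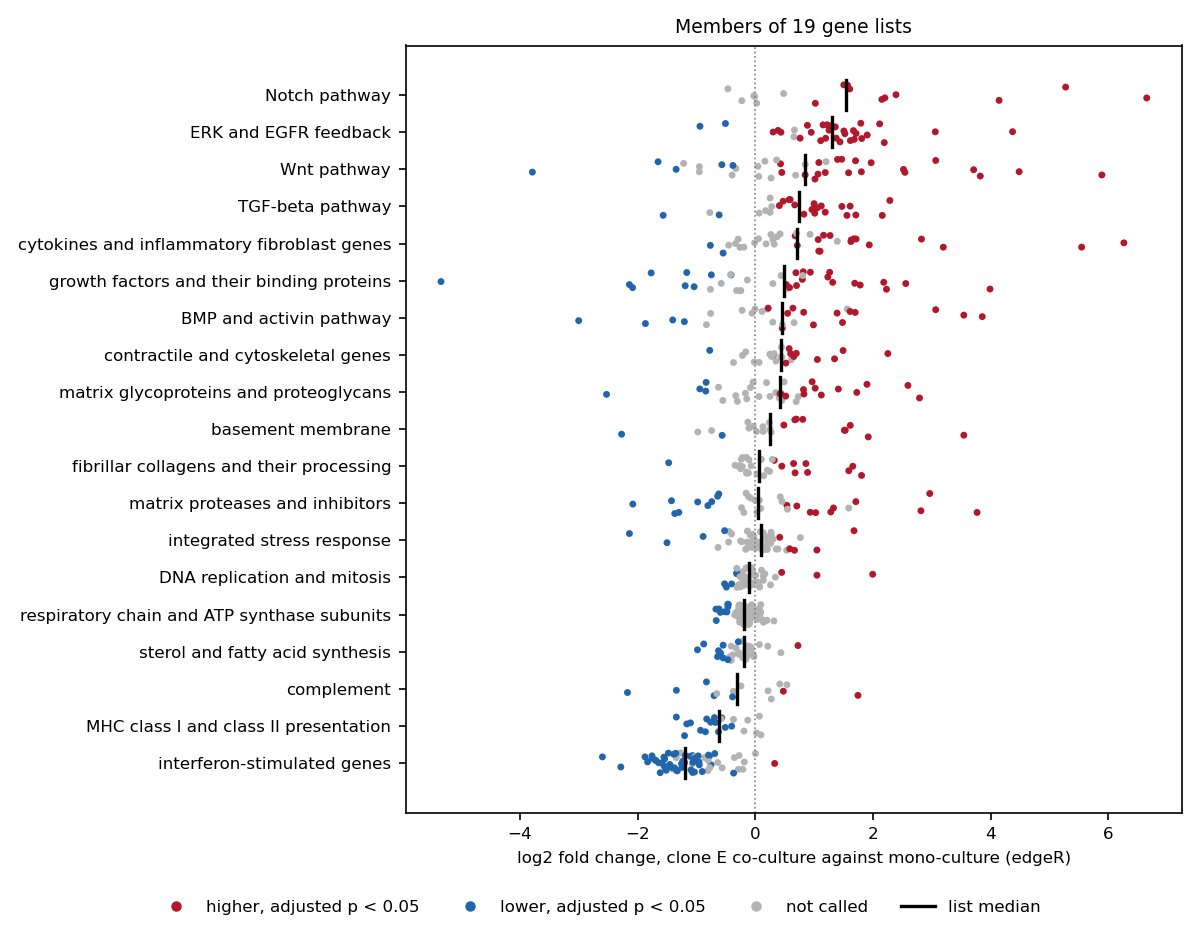
Log2 fold change of each tested member of 19 gene lists in clone E co-culture against mono-culture, one row per list, with red for genes called higher, blue for genes called lower and grey for genes not called at an adjusted p of 0.05, and a black bar at the list median. The medians run from -1.19 for interferon-stimulated genes to 1.53 for the Notch pathway, against 0.00 over all genes tested.

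Notch pathway genes rose at each level of the pathway. Of 16 tested members, 10 rose and 0 fell (median log2 fold change 1.53). Among the ligands, Jag1 was at 13.4, 15.3, 14.5 and 21.6 CPM in mono-culture against 89.8, 76.3, 78.6 and 54.4 CPM with clone E (log2 fold change 2.20, SE 0.26, adjusted p = 2.6e-07), and Dll1 was at 0.716, 0.715, 0.380 and 0.548 and 3.02, 1.82, 5.58 and 2.23 CPM (log2 fold change 2.39, SE 0.51, adjusted p = 5.7e-04). Both ligands stood higher in each clone E library than in any mono-culture library, with Dll1 highest in replicate 3. Among the receptors, Notch3, the receptor of mural cells and fibroblasts, rose from 95.8 ± 5.88 to 425 ± 88.2 CPM (SD, n = 4 each, log2 fold change 2.15, SE 0.28, adjusted p = 8.5e-07). Notch1 rose from 53.7 ± 2.07 to 152 ± 26.3 CPM (SD, n = 4 each, adjusted p = 2.1e-07), and Notch2 stood at 208 and 204 CPM (adjusted p = 0.94).

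The direct targets of Notch, which encode transcriptional repressors, separated widely between the groups. Heyl (ENSMUSG00000032744, chr4:123233556-123249875 (+ strand)) was at 0, 0.0550, 0.152 and 0.137 CPM in mono-culture and at 9.67, 13.1, 7.42 and 6.19 CPM with clone E (log2 fold change 6.65, SE 0.74, adjusted p = 8.3e-08). Hey1 (ENSMUSG00000040289, chr3:8663359-8667256 (− strand)) was at 0.330, 0.110, 0.152 and 0.366 and at 8.91, 11.2, 9.998 and 9.57 CPM (log2 fold change 5.27, SE 0.32, adjusted p = 1.9e-13). Both genes were close to 0 in each mono-culture library and several CPM or more in each clone E library. The feedback inhibitor gene Nrarp was at 0.275, 0.220, 0.304 and 0.548 and at 8.38, 3.12, 8.71 and 4.72 CPM (adjusted p = 1.2e-05). Hes1 was at 9.25, 21.7, 52.8 and 8.87 CPM in mono-culture against 66.9, 82.2, 59.0 and 68.1 CPM with clone E (log2 fold change 1.602, SE 0.36, adjusted p = 9.2e-04). Here the mono-culture libraries spread widely, replicate 3 lying near the lowest clone E library, although the groups did not overlap.

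The Wnt list moved in both directions, with target genes higher and R-spondin genes lower. Of 38 tested members, 20 rose and 5 fell (median log2 fold change 0.85), and the number that fell was 3 without clone E replicate 3, mono-culture replicate 3 or mono-culture replicate 4. Axin2 (ENSMUSG00000000142, chr11:108920349-108950783 (+ strand)), a scaffold of the beta-catenin destruction complex and a general target of the pathway, was at 0.661, 0.550, 0.228 and 1.28 CPM in mono-culture against 15.9, 23.4, 12.3 and 13.6 CPM with clone E (log2 fold change 4.48, SE 0.51, adjusted p = 1.2e-07). The feedback inhibitor gene Nkd2 was at 2.09, 2.04, 1.22 and 1.69 and 12.9, 42.1, 29.8 and 16.3 CPM (log2 fold change 3.82, SE 0.57, adjusted p = 7.8e-06), and its relative Nkd1 rose by 2.52 on the log2 scale (adjusted p = 1.0e-04). Both targets were highest in clone E replicate 2. Lef1, a DNA-binding partner of beta-catenin, rose from 5.02 ± 0.548 to 19.6 ± 4.44 CPM (SD, n = 4 each, adjusted p = 4.3e-08).

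Among Wnt ligands, Wnt5a, which acts largely outside beta-catenin, rose from 15.6 ± 2.07 to 54.7 ± 7.30 CPM (SD, n = 4 each, adjusted p = 7.9e-07). Wnt7b, at 0.110, 0.220, 0.0761 and 0.183 CPM in mono-culture, rose by 5.89 on the log2 scale (adjusted p = 8.7e-05). The ligand genes Wnt5b and Wnt9a fell with log2 fold changes of -1.35 and -0.57. Of the R-spondins, secreted proteins that keep Wnt receptors on the surface, Rspo2 and Rspo3 fell. Rspo2 (ENSMUSG00000051920, chr15:43020794-43170826 (− strand)) was at 45.1, 59.4, 38.9 and 31.5 CPM in mono-culture against 2.30, 6.14, 1.66 and 2.36 CPM with clone E (log2 fold change -3.79, SE 0.43, adjusted p = 9.2e-08). Rspo3 was at 17.7, 25.03, 14.6 and 15.2 and 6.51, 7.72, 3.803 and 4.91 CPM (log2 fold change -1.65, SE 0.30, adjusted p = 7.9e-05). The groups did not overlap for either gene, and clone E replicate 2 had the highest value of its group for both.

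Nearly all genes of the ERK and EGF-receptor list rose. Of 32 tested members, 28 rose and 2 fell (median log2 fold change 1.31). The receptor gene Egfr was at 86.4, 95.9, 64.0 and 72.9 CPM in mono-culture against 188, 225, 151 and 124 CPM with clone E (log2 fold change 1.11, SE 0.23, adjusted p = 4.8e-04). The ligand genes Areg, Ereg, Hbegf, Tgfa and Btc rose by 4.37, 1.71, 1.67, 1.26 and 0.76 on the log2 scale. Areg, with the highest fold change of these, had a library order like that of the epithelial markers, and Btc overlapped between groups.

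Downstream of the receptor, the transcription factor gene Etv4 (ENSMUSG00000017724, chr11:101769742-101785371 (− strand)) was at 8.37, 7.48, 6.62 and 6.22 CPM in mono-culture against 67.6, 50.8, 68.8 and 51.8 CPM with clone E (log2 fold change 3.06, SE 0.25, adjusted p = 4.0e-10). The AP-1 subunit gene Fosl1 rose from 17.8 ± 0.788 to 81.1 ± 17.7 CPM (SD, n = 4 each, log2 fold change 2.19, SE 0.28, adjusted p = 9.3e-07). Both separated from mono-culture by several times the spread within either group. The ERK phosphatase gene Dusp6 was at 16.6, 32.6, 50.2 and 14.3 CPM in mono-culture against 158, 86.2, 141 and 101 CPM with clone E (log2 fold change 2.11, SE 0.37, adjusted p = 7.7e-05), and Egr1, an immediate early gene, was at 373, 929, 1015 and 313 and 2038, 1351, 1399 and 1953 CPM (log2 fold change 1.36, SE 0.35, adjusted p = 0.0035). In both, mono-culture replicates 2 and 3 were above replicates 1 and 4 but below each clone E library. The feedback inhibitor gene Spry4 rose by 1.79 on the log2 scale, whereas its relative Spry2 fell from 83.6 ± 9.18 to 58.8 ± 8.23 CPM (SD, n = 4 each, adjusted p = 0.037). The other member that fell was the receptor gene Erbb3 (log2 fold change -0.94, adjusted p = 0.019). Neither fall passed the test without clone E replicate 1 or without mono-culture replicate 1.

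**Figure D3:**
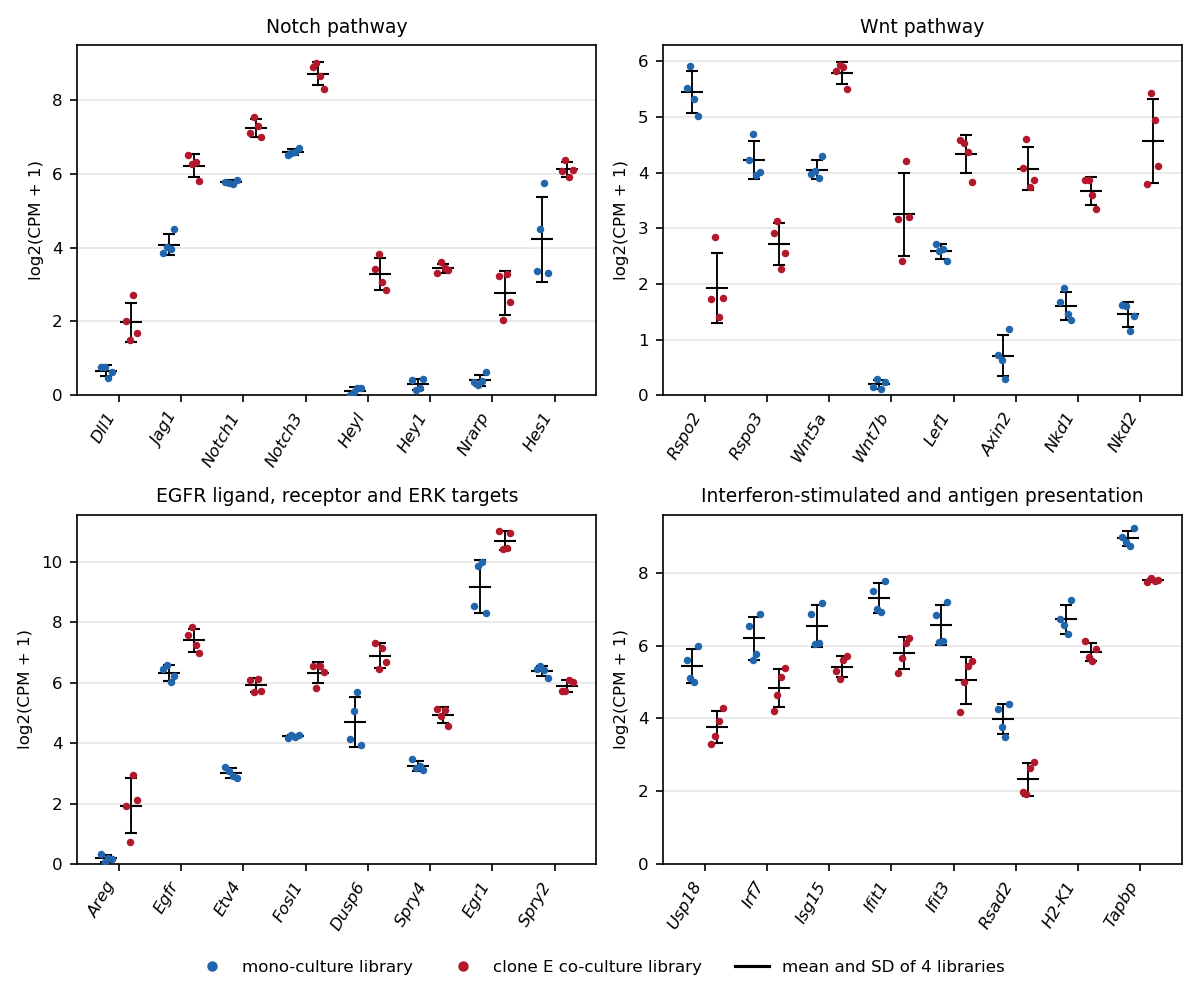
Levels of 8 genes from each of 4 groups in each library, as log2(CPM + 1), with mono-culture libraries in blue, clone E libraries in red and bars for the mean and SD of 4 libraries. Heyl, Hey1, Axin2 and Etv4 separate widely between groups, Rspo2, Rspo3 and Spry2 are lower with clone E, and the interferon-stimulated genes are lower with clone E but vary within mono-culture, where replicates 1 and 4 are the highest.

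Genes of the TGF-beta pathway rose, including ligands, a receptor and targets. Of 26 tested members, 18 rose and 2 fell (median log2 fold change 0.75). The ligand gene Tgfb2 was at 13.3, 18.98, 17.5 and 17.2 CPM in mono-culture against 81.0, 88.0, 95.1 and 61.9 CPM with clone E (log2 fold change 2.29, SE 0.21, adjusted p = 4.1e-09), and Tgfb3 and Tgfb1 rose by 1.47 and 0.67 on the log2 scale. The receptor gene Tgfbr1 rose by 1.19 and Tgfbr2 fell (log2 fold change -0.62, adjusted p = 0.0022). Among targets, Ctgf was at 37.9, 87.5, 58.4 and 46.3 and 305, 385, 229.7 and 105 CPM (log2 fold change 2.16, SE 0.43, adjusted p = 2.9e-04). The lowest clone E library was replicate 4, not far above the highest mono-culture library. The feedback gene Smad7 rose by 0.997 (adjusted p = 4.2e-05), and Tgfbi, a matrix protein gene named for its induction by TGF-beta, fell from 41.8 ± 3.30 to 14.1 ± 3.54 CPM (SD, n = 4 each, adjusted p = 1.7e-04).

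In the BMP and activin list, 13 of 28 tested members rose and 4 fell. The activin subunit gene Inhbb was at 5.23, 4.35, 2.59 and 5.85 CPM in mono-culture against 54.0, 36.2, 33.1 and 29.9 CPM with clone E (log2 fold change 3.06, SE 0.29, adjusted p = 4.7e-09), and the gene of the activin antagonist follistatin, Fst, at 0.440, 1.38, 0.684 and 1.37 and 13.02, 20.7, 12.2 and 11.9 CPM (log2 fold change 3.85, SE 0.46, adjusted p = 2.8e-07). Ligand subunit and antagonist were thus both higher. The Id genes, inhibitors of basic helix-loop-helix factors and targets of BMP, rose by 1.39 for Id1, 1.48 for Id3 and 3.54 for Id4 on the log2 scale, and Id2 stood at 12.5 and 13.4 CPM (adjusted p = 0.89). The genes of the BMP antagonists Chrd and Chrdl1 fell (log2 fold changes -1.21 and -3.003), while that of the antagonist Grem1 rose by 0.99. In the Hedgehog list, 4 of 12 tested members rose and 2 fell, with 2 higher without clone E replicate 3. Gli1 and Ptch1, both targets of the pathway, rose by 1.18 and 0.74, and Gas1, a co-receptor, fell from 612 ± 77.9 to 294 ± 82.5 CPM (SD, n = 4 each, adjusted p = 0.020).

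Matrix genes changed by class. Of 30 tested genes of fibrillar collagens and their processing, 9 rose and 1 fell (median log2 fold change 0.06). The abundant Col1a1, Col1a2 and Col3a1 had log2 fold changes of 0.03, -0.11 and 0.10 and did not pass the test. Col12a1, which coats collagen fibrils, was at 151, 196, 116 and 186 CPM in mono-culture against 429, 864, 488 and 264 CPM with clone E (log2 fold change 1.66, SE 0.36, adjusted p = 8.3e-04). The collagen-processing genes P4ha3 (a prolyl hydroxylase), Pcolce2 (an enhancer of procollagen cleavage) and Loxl3 (a lysyl oxidase) rose by 1.59, 1.80 and 0.86 on the log2 scale, and Leprel1, another prolyl hydroxylase gene, fell (log2 fold change -1.47). The collagen V genes Col5a1, Col5a2 and Col5a3 rose by 0.67, 0.65 and 0.89.

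Of 22 tested basement membrane genes, 9 rose and 2 fell. Col15a1 (ENSMUSG00000028339, chr4:47208161-47313167 (+ strand)), a collagen of the basement membrane zone, was at 15.4, 12.7, 10.9 and 9.28 CPM in mono-culture against 144, 154, 136 and 129 CPM with clone E (log2 fold change 3.54, SE 0.27, adjusted p = 9.8e-11). The collagen IV chain genes Col4a1 and Col4a2, which share a promoter, rose by 1.51 and 1.53 on the log2 scale, and the laminin genes Lama4, Lama5, Lamc1 and Lamb1 by 1.92, 0.81, 0.67 and 0.48. Nid1 rose by 0.70 and its relative Nid2 fell (log2 fold change -0.57, adjusted p = 0.022).

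Among matrix glycoproteins and proteoglycans, 13 of 34 tested members rose and 4 fell. Aspn, which encodes the small proteoglycan asporin, was at 18.3, 21.5, 16.1 and 13.8 CPM in mono-culture against 92.9, 139.6, 145 and 105 CPM with clone E (log2 fold change 2.79, SE 0.21, adjusted p = 9.8e-11). Spp1, the osteopontin gene, was at 224, 167, 169 and 223 and 1266, 780.5, 1538 and 1136 CPM (log2 fold change 2.59, SE 0.38, adjusted p = 6.2e-06). Periostin (Postn), tenascin C (Tnc) and the hyaluronan synthase gene Has2 rose by 1.72, 1.41 and 1.90 on the log2 scale. Tnxb, the tenascin X gene of resting connective tissue, fell from 12.3 ± 2.09 to 2.13 ± 0.764 CPM (SD, n = 4 each, adjusted p = 5.9e-06), and the elastic fibre genes Fbln5, Emilin1 and Efemp1 had log2 fold changes of -0.84, -0.84 and -0.94, all called.

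The proteases split almost evenly, 10 of 32 tested members rising and 9 falling. The disintegrin protease gene Adam12 was at 6.88, 5.997, 6.77 and 6.31 CPM in mono-culture against 38.3, 60.5, 45.8 and 37.5 CPM with clone E (log2 fold change 2.81, SE 0.32, adjusted p = 1.3e-07). The stromelysin gene Mmp3 and the tissue plasminogen activator gene Plat rose by 2.96 and 1.33 on the log2 scale. The aggrecan-cleaving protease gene Adamts5 was at 728, 949.7, 804 and 886 and 346, 477, 299.6 and 244 CPM (log2 fold change -1.30, SE 0.26, adjusted p = 3.6e-04), and the membrane-bound Mmp14 and Mmp16 fell with log2 fold changes of -0.81 and -1.43.

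Of 24 contractile and cytoskeletal genes tested, 10 rose and 1 fell. Acta2, the smooth muscle actin gene that marks myofibroblasts, was at 109, 148, 121 and 195 CPM in mono-culture against 688, 446, 284 and 193 CPM with clone E (log2 fold change 1.49, SE 0.38, adjusted p = 0.0031), and Tagln, an actin-binding protein gene, at 30.8, 38.4, 30.5 and 48.0 and 159, 119, 58.9 and 38.6 CPM (log2 fold change 1.34, SE 0.45, adjusted p = 0.023). Both passed the test with overlap between the groups, clone E replicate 4 lying at or below the highest mono-culture library. Csrp1, a LIM domain gene of smooth muscle, fell from 251 ± 12.4 to 147 ± 15.6 CPM (SD, n = 4 each, adjusted p = 5.3e-08). Of 21 tested targets of YAP and SRF, 6 rose and 4 fell, with Wisp2 and Cyr61 higher by 2.77 and 1.33 and Fhl2 at a log2 fold change of -1.11.

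Secreted factors changed in both directions. Of 36 tested growth factors and their binding proteins, 16 rose and 9 fell. The IGF-binding protein genes Igfbp3 and Igfbp5 moved in opposite directions, with the highest and the lowest fold change of the list. Igfbp3 was at 1.98, 4.02, 1.52 and 3.11 CPM in mono-culture against 47.4, 30.6, 61.2 and 33.4 CPM with clone E (log2 fold change 3.99, SE 0.59, adjusted p = 6.9e-06). Igfbp5 (ENSMUSG00000026185, chr1:72857932-72874884 (− strand)) was at 17.3, 13.2, 6.69 and 3.29 CPM in mono-culture against 0.383, 0.144, 0.245 and 0.191 CPM with clone E (log2 fold change -5.34, SE 0.81, adjusted p = 8.3e-06). Mono-culture itself spread widely for Igfbp5, from its highest value in replicate 1 to its lowest in replicate 4, yet its lowest library was above each clone E library. Pdgfb and Vegfa rose by 2.56 and 0.80, and Figf, which encodes VEGF-D, fell from 184 ± 21.1 to 53.8 ± 10.7 CPM (SD, n = 4 each, adjusted p = 1.1e-05).

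Of 34 tested cytokines and inflammatory fibroblast genes, 16 rose and 2 fell (median log2 fold change 0.70). Il1rn (ENSMUSG00000026981, chr2:24336853-24351494 (+ strand)), the gene of the interleukin-1 receptor antagonist, was at 0.440, 0.550, 0.152 and 0.183 CPM in mono-culture against 27.8, 23.01, 32.7 and 21.8 CPM with clone E (log2 fold change 6.26, SE 0.59, adjusted p = 6.5e-09). The interleukin-6 family gene Lif was at 2.04, 2.15, 2.28 and 2.83 and 18.4, 8.63, 26.01 and 13.3 CPM (log2 fold change 2.82, SE 0.45, adjusted p = 2.1e-05), and Il6 itself at 0.495, 0.550, 0.608 and 0.320 and 5.55, 4.84, 3.56 and 3.83 CPM (log2 fold change 3.19, SE 0.42, adjusted p = 1.0e-06). All 3 were higher in each clone E library than in any mono-culture library. The alarmin gene Il33 and the prostaglandin synthase gene Ptgs2 rose by 1.94 and 1.67 on the log2 scale, and Vcam1 and Il18 fell (log2 fold changes -0.55 and -0.77). In the list of prostaglandin and lipid mediator genes, 8 of 17 tested members rose and 1 fell, the latter being Ptgds, prostaglandin D synthase. The lysophosphatidic acid-producing enzyme gene Enpp2, the receptor genes S1pr3 and Ptger4 and the sphingosine kinase gene Sphk1 rose by 2.13, 1.59, 1.34 and 0.93 on the log2 scale.

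Of 14 tested chemokine genes, 5 rose and 4 fell. The eotaxin gene Ccl11 was at 0.110, 0.220, 0 and 0.274 CPM in mono-culture against 3.93, 5.85, 10.7 and 13.8 CPM with clone E (log2 fold change 5.64, SE 0.81, adjusted p = 4.3e-06). Cxcl5, a neutrophil attractant, had 172 counts with clone E and 1 in mono-culture, a scaled ratio of 166.5 with an exact 95% counting interval of 29.5 to 6615. Cxcl12 (ENSMUSG00000061353, chr6:117168535-117181367 (+ strand)), the ligand of CXCR4, was at 1639, 1667, 1340 and 1279 CPM in mono-culture against 329, 559.9, 271 and 343 CPM with clone E (log2 fold change -1.98, SE 0.38, adjusted p = 2.0e-04), with each clone E library below each mono-culture library. Ccl5 and Cxcl10, both also induced by interferon, had log2 fold changes of -1.13 and -1.31.

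Interferon-stimulated genes were lower with clone E. Of 65 tested members, 47 fell and 1 rose, with a median log2 fold change of -1.19. The gene that rose was Pml, whose nuclear bodies respond to interferon, by 0.33 (adjusted p = 0.048), with overlap, and it did not pass without any one of 6 of the 8 libraries. Summed over the list, the level was 5031, 3722, 3505 and 6183 CPM in mono-culture against 2129, 2409, 2868 and 2727 CPM with clone E. Mono-culture replicates 1 and 4 were the highest, and the lowest mono-culture library was above each clone E library. Without mono-culture replicate 4, 37 members fell and the median was -0.97.

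The proteins of this list act at several steps. The transcription factor gene Irf7 was at 92.4, 48.1, 53.9 and 115 CPM in mono-culture against 17.4, 24.2, 34.3 and 40.5 CPM with clone E (log2 fold change -1.42, SE 0.44, adjusted p = 0.014). Of the effectors, Isg15, a ubiquitin-like modifier, was at 116, 64.6, 66.8 and 141 and 38.3, 32.8, 47.4 and 51.2 CPM (log2 fold change -1.20, SE 0.33, adjusted p = 0.0056). Ifit1 (ENSMUSG00000034459, chr19:34640871-34650009 (+ strand)), which binds foreign RNA, was at 178, 128, 119 and 219 and 36.8, 49.8, 66.0 and 73.3 CPM (log2 fold change -1.51, SE 0.28, adjusted p = 1.4e-04). In these 3 genes the groups did not overlap, and mono-culture replicates 1 and 4 were again the highest. The members with the lowest p were Ifi47, Herc6, Ifi27 and Ddx60, with log2 fold changes of -1.62, -1.06, -0.78 and -1.71. Rsad2, Cmpk2, Usp18 and Gbp2 had log2 fold changes of -1.88, -2.29, -1.76 and -1.76, while Irf1 did not pass the test (-0.19).

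The interferon-stimulated response element (ISRE) is the promoter sequence to which interferon-activated transcription factors bind, and it was searched in the 250 bases before the gene start (RefSeq sequences of GRCm38.p6, both strands) as GAAANNGAAA. It was present for 24 of the 49 tested interferon-stimulated genes that had a sequence, and for 18 of the 36 that fell. Over all 27025 genes with a sequence the share was 3.46%. The matches of 4 genes that fell are shown in 30 bases each because they are the element by which the list is known, in the strand of the gene, 5′ to 3′, with matches in capitals (on the opposite strand in the last 3, so that the reverse complement shows). In Isg15 overlapping matches run together, and the last capital of Ifit1 is the first base of a further match.
Isg15 (chr4:156200871-156200900, − strand): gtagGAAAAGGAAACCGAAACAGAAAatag
Ifit1 (chr19:34640775-34640804, + strand): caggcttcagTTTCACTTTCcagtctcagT
Ifit3 (chr19:34583397-34583426, + strand): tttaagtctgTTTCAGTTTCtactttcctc
Rsad2 (chr12:26456553-26456582, − strand): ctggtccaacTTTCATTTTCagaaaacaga

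A match describes the sequence and does not show binding in these cells.

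Antigen presentation genes moved in the same direction. Of 21 tested members, 14 fell and 0 rose, and 9 fell without mono-culture replicate 4. The class I heavy chain gene H2-K1 was at 106, 93.7, 78.4 and 152 CPM in mono-culture against 69.4, 50.9, 46.6 and 58.8 CPM with clone E (log2 fold change -0.93, SE 0.20, adjusted p = 7.7e-04), and Tapbp, the tapasin of the peptide-loading complex, at 499, 460.1, 423 and 598 and 215, 231, 217 and 219.6 CPM (log2 fold change -1.17, SE 0.19, adjusted p = 2.4e-05). The light chain gene B2m and the immunoproteasome gene Psmb9 had log2 fold changes of -0.40 and -1.34. Of 14 tested complement genes, 5 fell and 2 rose. Without clone E replicate 1, 3 or 4, or mono-culture replicate 2 or 4, the number that fell was 3, and without clone E replicate 2 or mono-culture replicate 2 or 4 none rose. C3, the central component, was at 66.8, 39.8, 30.04 and 52.6 and 13.9, 11.7, 8.83 and 7.47 CPM (log2 fold change -2.17, SE 0.54, adjusted p = 0.0025).

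The 14 genes with the lowest fold changes by the rule used for the highest were Igfbp5, Bmp3, Sprr1a, Rspo2, Cldn1, Angptl1, Inmt, Ptchd1, Hlf, Slc24a3, Insc, Nalcn, Mt2 and Pdzd2. Sprr1a (ENSMUSG00000050359, chr3:92483952-92485895 (− strand)), a gene known from the cornified envelope of skin, was at 276, 303, 213 and 168 CPM in mono-culture against 20.2, 18.1, 11.3 and 12.6 CPM with clone E (log2 fold change -3.94, SE 0.54, adjusted p = 2.7e-06). Cldn1, a claudin like the strongly higher Cldn6, was at 44.8, 61.8, 52.8 and 75.9 and 3.78, 8.49, 4.23 and 5.93 CPM (log2 fold change -3.39, SE 0.37, adjusted p = 5.1e-08). Hlf, a PAR bZIP transcription factor gene, fell from 11.8 ± 2.21 to 1.41 ± 0.396 CPM (SD, n = 4 each, adjusted p = 1.3e-06), and the metallothionein genes Mt2 and Mt1 had log2 fold changes of -2.92 and -1.997. Bmp3, Slc24a3 (an ion exchanger), Nalcn (a sodium leak channel) and Ptchd1 had log2 fold changes of -4.62, -3.05, -2.97 and -3.14. Each of the 14 was lower in each clone E library than in any mono-culture library, which the rule required.

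Of 20 tested markers of resting fibroblasts, 7 fell and 6 rose. Dpt, which encodes the matrix protein dermatopontin, was at 228, 175, 126 and 137 CPM in mono-culture against 15.5, 24.98, 27.5 and 31.97 CPM with clone E (log2 fold change -2.74, SE 0.35, adjusted p = 6.8e-07). The semaphorin gene Sema3c and the surface sialomucin gene Cd34 fell with log2 fold changes of -2.43 and -1.44. The members that rose included Col15a1, Sfrp1 and Ly6c1, with log2 fold changes of 3.54, 1.70 and 1.63, so the list did not move as one.

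Few cell cycle genes passed the test. Of 42 tested genes of DNA replication and mitosis, 3 rose and 5 fell, with 3 lower without clone E replicate 3 or mono-culture replicate 4. Ccnd1, the cyclin D1 gene that growth factors induce, was at 66.7, 77.3, 68.1 and 94.9 CPM in mono-culture against 402, 216, 381 and 224 CPM with clone E (log2 fold change 1.99, SE 0.31, adjusted p = 1.1e-05), and Ccnd2 rose by 1.05. The proliferation marker gene Mki67 stood at 317, 278, 302 and 398 and 329.5, 378, 340.5 and 312 CPM with overlap (adjusted p = 0.79). The replication helicase genes Mcm5, Mcm6 and Mcm7 had log2 fold changes of -0.49, -0.40 and -0.31, all called. Of 22 tested p53 targets and cell cycle inhibitors, 7 rose and 3 fell, with 4 higher without clone E replicate 1 or mono-culture replicate 1. The inhibitor gene Cdkn1c fell from 19.3 ± 1.86 to 3.83 ± 0.886 CPM (SD, n = 4 each, log2 fold change -2.33, SE 0.26, adjusted p = 7.3e-08).

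Metabolic and stress lists were mixed. Of 53 tested genes of the integrated stress response, which answers amino acid shortage and other stress through the factor ATF4, 5 rose and 4 fell, both shares below the background. The number that rose was 2 without replicate 1 of either group and 3 without clone E replicate 3 or mono-culture replicate 2, 3 or 4, and the number that fell was 2 without mono-culture replicate 4. Atf4 was at 481, 674, 574 and 651 and 583, 442, 541 and 457 CPM (adjusted p = 0.21) and its target Asns, asparagine synthetase, at 137, 205, 172 and 180.2 and 294, 160.2, 176 and 172 CPM (adjusted p = 0.52). Atf5 and Ddit3 fell with log2 fold changes of -1.50 and -0.89. Of 36 tested sterol and fatty acid synthesis genes, 9 fell and 1 rose, with the feedback gene Insig1 at 373, 435, 452 and 402 and 228, 207, 197 and 207 CPM (log2 fold change -0.98, SE 0.15, adjusted p = 9.0e-06).

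Of 74 tested respiratory chain and ATP synthase subunit genes, 11 fell and 0 rose, both shares below the background. The number that fell was 7 without clone E replicate 3 or mono-culture replicate 2, and none passed a fold change of 2. Ndufa5, Ndufb7 and Ndufa1 of complex I and Atp5j2 of the ATP synthase fell with log2 fold changes of -0.67, -0.67, -0.49 and -0.62. In glycolysis and hypoxia, 6 of 33 rose and 2 fell. Hk2, a hexokinase gene of growing cells, and Ldha, a lactate dehydrogenase gene, rose by 1.39 and 0.46, and the stress-induced gene Ndrg1 fell with a log2 fold change of -0.99. Of 82 cytosolic ribosomal protein genes, 1 was called, Rps3a3, a near copy of Rps3a1 whose reads may be shared with it. Endoplasmic reticulum chaperones gave 2 higher (Xbp1 and Pdia6, with log2 fold changes of 0.63 and 0.40) and 1 lower (Herpud1, log2 fold change -0.49) of 24. NRF2 and metal response genes gave 7 and 7 of 25, clock genes 3 and 2 of 18, and proteasome subunits 2 and 4 of 37 (2 lower without clone E replicate 2 or 3). Apart from NRF2 and metal response, the shares of the lists in this paragraph were near or below the background.

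The last comparisons asked where fibroblasts from the clone E co-culture differed from those of other co-cultures, with no use of mono-culture. These comparisons share the clone E libraries with each other and with the comparison above. Against the mean of the other 7 co-cultures 1482 genes (10.3%) differed, 844 (5.85%) higher and 638 (4.42%) lower with clone E. Without clone E replicate 2 this count was 383. Without clone E replicate 1, 3 or 4 it was 825, 895 or 940. With the replicate number as a block in the fit it was 2218, of which 1012 were lower. Several other co-cultures lay at the level of clone E in the lists that follow, so a difference from the mean of 7 groups is not one from each of them. The genes with the highest fold changes whose clone E mean lay outside the range of the other group means were Ccl11, AI467606, Ly6a, Cbfa2t3 and Itgb7, and those with the lowest were Bace2, Slco4a1, Cass4, Pcsk6 and Pde1c. Ccl11 averaged 8.57 CPM with clone E and between 0.118 (clone V) and 4.93 CPM (clone N) in the other co-cultures (log2 fold change 2.61, SE 0.39, adjusted p = 1.1e-04). Cbfa2t3, a transcriptional co-repressor gene, averaged 18.99 CPM with clone E and from 1.37 (clone K) to 13.9 CPM (clone M) elsewhere (log2 fold change 1.70, SE 0.25, adjusted p = 1.1e-04).

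In the integrated stress response, 0 of 53 members were higher and 21 lower with clone E than in the other co-cultures (median log2 fold change -0.42, against 0.01 over all genes tested). The number lower was 6, 12 and 9 without clone E replicates 2, 3 and 4, and 34 with the replicate block. As the mean log2(CPM + 1) of the list, clone E lay at 6.41 to 6.92, clone M lay below it at 5.86 to 6.18, and clones K and N overlapped it. Against clone N, 0 members were higher and 0 lower. Ddit3, the gene of the stress factor CHOP, averaged 71.1 CPM with clone E. In clone M it averaged 65.6 CPM, in clone N 113 CPM, and from 116 (clone K) to 332 CPM (clone V) in the rest (log2 fold change -1.28, SE 0.17, adjusted p = 2.2e-05). Asns averaged 200.3 CPM with clone E, less in clones M and K (95.1 and 156 CPM) and more in the rest, up to 558 CPM with clone V (log2 fold change -0.58, SE 0.18, adjusted p = 0.032). In the Notch list 6 of 16 tested members were higher and 1 lower, against 5.85% and 4.42% of all genes tested. Those higher included Heyl (log2 fold change 1.47, adjusted p = 0.0041) and Hey1 (log2 fold change 0.81, adjusted p = 0.0017). The number higher was 3 without clone E replicate 1 and 2 without clone E replicate 2. The list mean of clone E (4.30 to 4.70) overlapped those of clones M, N and T and of KPC1, and lay above those of clones H, K and V. Of the ERK and EGF-receptor list 0 members were higher and 0 lower. In the lists of matrix glycoproteins, complement and sterol synthesis, 10 of 34, 6 of 14 and 9 of 36 tested members were higher and none was lower. The shares over all genes tested were again 5.85% and 4.42%. Without clone E replicate 2 the numbers higher were 3, 2 and 2. Without clone E replicate 3 the first was 6 and the last 5, and the last was also 2 without clone E replicate 1 and 5 without clone H replicate 3. In all 3 lists the list mean of clone E overlapped those of clones K, M and N. The list mean of clone E also overlapped that of clone V for matrix glycoproteins, clone T for complement, and clones H and T for sterol synthesis.

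Against clone N, taken because an earlier account of these data placed it closest to clone E, 183 genes (1.27%) differed, 53 (0.367%) higher and 130 (0.9%) lower with clone E. The number higher was 19 when only the libraries of the 2 groups were fitted, 141 with the replicate block (251 lower), and 14 to 113 with 1 library left out, the lowest and highest without clone N replicates 4 and 1. The count of calls ran from 77 without clone N replicate 2 to 304 without clone N replicate 1, and was 88, 101 and 92 without clone E replicates 1, 2 and 4 and 106 and 94 without clone N replicates 3 and 4. The genes with the highest fold changes were Atp8a1, Hic1, Nexn, Dtx4 and Erap1 and those with the lowest Ceacam1, Trbc2, Olr1, C130074G19Rik and Slc9a2. Hic1, a repressor gene that marks quiescent mesenchymal cells, averaged 119 CPM with clone E and 59.0 CPM with clone N (log2 fold change 1.01, SE 0.23, adjusted p = 0.020). Ceacam1, an epithelial adhesion gene, averaged 0.313 and 4.999 CPM (log2 fold change -3.97, SE 0.61, adjusted p = 2.5e-04). The summed epithelial markers averaged 679.8 CPM with clone N, above each clone E library.

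Against clone H, which the same account placed further away, 4569 genes (31.6%) differed, 2310 (16%) higher and 2259 (15.6%) lower with clone E. Of the integrated stress response, 42 of 53 members were lower and 2 higher with clone E (median log2 fold change -0.86). Atf4 averaged 506 CPM with clone E and 904 CPM with clone H (log2 fold change -0.84, SE 0.14, adjusted p = 5.5e-05). Gdf15, a secreted stress signal, averaged 26.96 and 147 CPM (log2 fold change -2.45, SE 0.28, adjusted p = 1.7e-06). Among 65 tested interferon-stimulated genes 20 were lower and 0 higher. The number lower was 10 and 11 without clone E replicates 1 and 2, and 38, 9 and 8 without clone H replicates 1, 3 and 4. Cxcl10 stood at 9.32 CPM with clone E and 59.7 CPM with clone H (log2 fold change -2.68, SE 0.38, adjusted p = 1.2e-05). In the Wnt list 17 of 38 tested members were higher and 2 lower, and in the Notch list 7 and 1 of 16, against 16% and 15.6% of all genes tested. The highest fold changes were those of Gda, Il1rn, Serpina3n, Gdpd2 and Rbp4, with Il1rn at 26.3 CPM with clone E, 1.12 CPM with clone H and, for reference, 25.4 with clone N (log2 fold change 4.58, SE 0.50, adjusted p = 9.4e-07), and Trim54, Nptx1 and Bace2 joined Cxcl10 and Gdf15 at the other end. The summed epithelial markers averaged 251 CPM with clone H, below each clone E library, and their part in these differences was not tested.

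**Figure D4:**
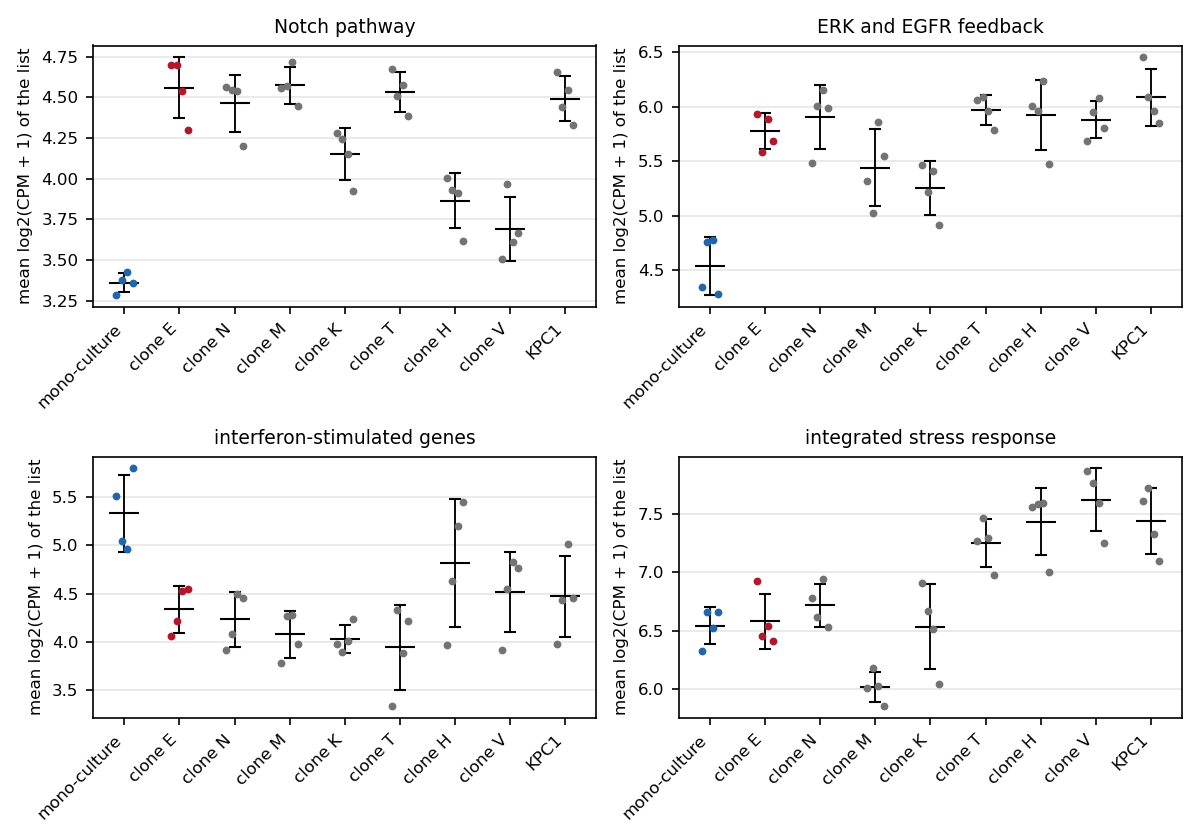
Mean log2(CPM + 1) over the tested members of 4 lists in each library of the 9 groups, with mono-culture in blue, clone E in red and the other co-cultures in grey, and bars for the mean and SD of 4 libraries; the vertical axes do not start at 0. Clone E lies above mono-culture for the Notch and ERK lists and below it for interferon-stimulated genes, and for the integrated stress response its libraries lie at 6.41 to 6.92, near the mono-culture libraries, above clone M, overlapping clones K and N, and below all libraries of clones T, H and V and of KPC1. In the Notch list clone E overlaps clones M, N and T and KPC1.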

How the data were processed

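Per the labels, the authors aligned reads to mm10 and counted them per gene; their processing notes name STAR, featureCounts and edgeR, with versions not given in the sources used here, and it is not stated whether counting used strand, so overlapping and antisense genes are uncertain. The deposited tables hold whole-number counts for 39017 genes, which were tested, and RPKM values made by the authors for 37746 genes, used for levels per length and one alternative. Libraries were grouped by their labels. All 36 libraries of 9 groups were fitted together in edgeR 4.0.16 (R 4.3.3): low-count filtering by group left 14439 genes, with TMM scaling, the robust quasi-likelihood test and Benjamini-Hochberg adjustment at 0.05. Intervals and floors of 3 counts cover counting error only.

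Members of the 37 gene lists, the lists themselves and the comparisons were chosen with earlier results of these data known. Of 1181 list genes, 1180 were found and 1044 tested. Genes named by rule had a mean of at least 2 CPM, passed the test and did not overlap between groups (for the mean of the other co-cultures, clone E outside the range of group means), and were the 14 with the highest and the 14 with the lowest fold changes (5 and 5 in the other comparisons). The rule also gave the members of each list with the lowest p (up to 4), 146 in all, of which 92 are in the text. A few genes are not reported here. Other genes were named for their known role after their values were seen. Alternatives used RLE scaling, library totals, other filters, only the libraries compared, a replicate block, DESeq2 1.42.0, limma 3.58.1 on log2(RPKM + 1) and log2(RPKM + 0.1), and each library left out in turn. Gene positions are GENCODE vM21 on GRCm38 (mm10).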

Additional observations from a re-analysis of the deposited data

Results flagged for a closer look

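Among 136 groups of 4 libraries checked, 12 held a library whose gap to the nearest other, divided by the range of the group, was above Dixon's 95% critical value for 4 samples, and chance alone would mark about 1 in 20 groups. Within clone E, replicate 4 stood apart in the glycolysis and hypoxia list (ratio 0.892, a mean log2(CPM + 1) of 6.09 against 5.86 to 5.88) and in Mt2 (ratio 0.944, 5.55 CPM against 1.10 to 1.35). Replicate 2 stood apart in Rspo2 (ratio 0.843, 6.14 CPM against 1.66 to 2.36) and Angptl1 (ratio 0.930, 0.959 CPM against 0.191 to 0.245). In mono-culture, replicate 4 stood apart in Nalcn (ratio 0.883, 3.11 CPM against 5.67 to 6.01) and Pdzd2 (ratio 0.892, 22.4 CPM against 13.4 to 14.4). For Krt8, Cadm1, Ifi202b, Foxa2, Cdh13 and Fam83g the ratio in mono-culture was 1 because a single library had 1 or 2 counts and the other 3 had 0.

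RNA levels in the clone E libraries also differed from those of other co-cultures by direct tests of the difference. The genes called were 1482 (10.3%) against the mean of the other co-cultures, 183 (1.27%) against clone N and 4569 (31.6%) against clone H.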

How the results depend on the processing

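Requiring a fold change of at least 2 left 1390 of the 4622 genes called against mono-culture, 221 of 1482 against the other co-cultures, 98 of 183 against clone N and 1038 of 4569 against clone H. With an adjusted p under 0.1 the counts against the other co-cultures and clone N were 2425 and 307. Against clone N the count was 78 with at least 10 counts in every library and 287 in DESeq2. Leaving out 1 library gave 3664 to 4312 calls against mono-culture, 383 to 1713 against the other co-cultures, 77 to 304 against clone N and 3291 to 4568 against clone H. The deviations of same-numbered libraries of clone E and mono-culture from their group means had correlations of -0.25, 0.40, 0.02 and 0.00. Of these pairs 1 was over 0.1, and 4 such values cannot show whether the numbers pair the libraries. Fitted with a replicate block, the counts were 5349, 2218, 392 and, against clone H, 5352. With the other co-cultures the picture was mixed. For clone K all 4 same-numbered pairs were over 0.1 (0.30, 0.28, 0.46 and 0.29) and all 4 clone E libraries correlated best with their own number, for clones M, T and V and KPC1 3 pairs were over 0.1, and for clones N and H 1 pair was. The clone E libraries that correlated best with their own number were 3 for clones M and V, 2 for clone T and 1 each for KPC1 and clones N and H. The labels number the co-culture libraries set by set, replicate 1 of every line first, but do not say what a replicate number marks. Any pairing by number among co-cultures is thus a hint from this order and from the data. Fitting only the libraries compared gave 5498, 1155, 128 and 3850 calls.

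Genes whose direction turned did not pass the test in either setting. Against mono-culture, Col1a1 had a log2 fold change of -0.0361 with library totals, -0.0072 with the block, -0.0592 and -0.0593 in limma on log2(RPKM + 1) and log2(RPKM + 0.1), and -0.1317 to 0.1465 with 1 library left out. Id2 was at -0.0725 and -0.0945 in these limma fits and -0.1107 to 0.3759 with 1 library left out. The ranges with 1 library left out were -0.0305 to 0.3106 for Asns, -0.203 to 0.0002 for Col1a2, -0.0069 to 0.2452 for Col3a1, -0.2507 to 0.0526 for Sox9, -0.4239 to 0.1917 for Ceacam1, -0.0013 to 0.3468 for Gdf15 and -0.1214 to 0.0494 for Notch2. Among lists against mono-culture, at least 10 counts in every library left 6 Notch and 13 Wnt members higher (10 and 20 before), a fold change of 2 left 4 antigen presentation members lower (14 before) and no sterol or respiratory chain members (9 and 11 before), and fitting only the libraries compared gave 15 and 20 of these. On log2(RPKM + 1) the Notch and Wnt medians were 0.79 and 0.29 (1.53 and 0.85 before). The depth of 12577931 to 21621983 counts leaves genes of a few counts uncertain.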
